A study of Homo sapiens with 15 samples.

Results

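The genes described here are 10 markers and effectors of the mesenchymal state and of matrix remodelling, namely VIM, ZEB1, ZEB2, SNAI2, TWIST1, CDH2, FN1, LOXL2, MMP1 and SPARC. They were taken as every probe set that the platform annotation pairs with 1 of these symbols and no other. That gave 29 probe sets for 10 genes, of 41091 probe sets with a single symbol for 19775 genes on the array. All 15 arrays of the series were used.

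RNA came from the human cell line SKOV3ip1, derived from an epithelial ovarian cancer, and was read on Affymetrix U133 Plus 2.0 arrays. One culture was grown for 7 days without folate and is called the no-folate extract. The other 4 were grown for 7 days with folic acid at a physiological concentration, which the labels write as 2 to 10 nm. Of these, 1 received no antibody (folate), 1 received the control antibody 004, 1 received an antibody labelled 003 and 1 received MORAb003, each antibody for 24 hours. MORAb-003 binds folate receptor alpha (FOLR1), which takes up folate. No label states if the antibody called 003 is also MORAb003, and sample titles write MTF or 5-MTF where the other labels say folic acid. Each condition was 1 culture and 1 RNA extract, from which 3 aliquots were hybridised. Every p-value between conditions below therefore measures the spread between hybridisations and compares 5 extracts of 1 cell line, and culture and treatment cannot be told apart. In such bulk RNA, fewer cells of a type and less RNA per cell cannot be told apart either.

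In epithelial to mesenchymal transition, cells give up their junctions, change their cytoskeleton and take on a motile, matrix-producing state. ZEB1, ZEB2, SNAI2 and TWIST1 are transcription factors that drive it, ZEB and SNAIL family members mainly by repressing E-cadherin through E-box sequences. VIM and CDH2 are its classical cytoskeletal and adhesion markers, FN1 and SPARC are secreted matrix proteins, LOXL2 crosslinks collagen and MMP1 cleaves it. Ovarian carcinoma cells often hold epithelial and mesenchymal genes side by side.

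The arrays had medians of 6.53 to 6.67 on the deposited log2 scale. Array 1 of the 004 extract stood apart from the other 14, with a correlation of at most 0.950 with another array of its extract and a gap between the 3′ and 5′ control probe sets of actin of 3.82, against 3.28 and 3.27 on the other 004 arrays. Results are given with and without it where it matters. The extracts also differed in this log2 gap. The reach of labelling along the transcript and the state of the RNA cannot be told apart by it. On the GAPDH control the mean gap was 1.21 for MORAb003, 1.97 for folate, 2.05 for 004, 2.37 for no folate and 2.49 for 003. The actin gap was smallest for MORAb003 too, at 2.42 ± 0.13 (SD, n = 3 arrays), followed by folate at 3.24 ± 0.13, 004 at 3.46 ± 0.31, 003 at 4.02 ± 0.10 and no folate at 4.09 ± 0.16. Its part in the differences between extracts was not tested, apart from the values set beside the results. All 15 epithelial and ovarian cancer markers had a tested probe set, with means over the 15 arrays of 13.61 for EPCAM, 10.50 for E-cadherin (CDH1) and 13.74 for FOLR1. Of 12 fibroblast, pericyte and endothelial markers 8 were tested, including DCN at 7.78, while LUM and FAP were dim, at 5.16 and 5.96.

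Upstream sequences were available for 6 of the 10 genes in RefSeq's promoter windows on GRCh38.p14, and 3 are shown because their genes were among those that stood highest in the MORAb003 extract. Each is the 250 bases before an annotated start, written 5′ to 3′ on the gene's strand. Capitals mark matches, on either strand, to the AP-1 element TGANTCA, the cyclic AMP response element (CRE) TGACGTCA or the E-box CACCTG, which SNAIL and ZEB proteins recognise and which reads CAGGTG on the opposite strand. The windows lie at chr2:215436069-215436318 on the minus strand for FN1, at chr10:17227991-17228240 on the plus strand for VIM and at chr10:31318167-31318416 on the plus strand for ZEB1, the most upstream of its 7 windows.
FN1: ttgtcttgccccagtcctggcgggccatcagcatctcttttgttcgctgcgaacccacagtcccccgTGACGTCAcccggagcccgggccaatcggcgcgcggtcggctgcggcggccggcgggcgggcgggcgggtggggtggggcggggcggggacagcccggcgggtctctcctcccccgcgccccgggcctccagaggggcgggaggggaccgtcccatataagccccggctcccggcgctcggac
VIM: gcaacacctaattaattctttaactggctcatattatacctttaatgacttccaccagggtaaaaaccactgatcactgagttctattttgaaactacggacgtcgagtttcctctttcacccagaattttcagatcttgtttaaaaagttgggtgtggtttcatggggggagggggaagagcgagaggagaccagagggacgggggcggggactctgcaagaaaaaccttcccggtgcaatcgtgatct
ZEB1: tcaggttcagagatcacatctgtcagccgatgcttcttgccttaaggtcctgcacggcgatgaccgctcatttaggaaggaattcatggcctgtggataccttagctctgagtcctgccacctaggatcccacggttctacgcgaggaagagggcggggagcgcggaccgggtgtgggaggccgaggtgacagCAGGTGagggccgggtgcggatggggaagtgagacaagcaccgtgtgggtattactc
The FN1 window held 1 CRE that began at position -183 from the start, a motif found in 1.646% of 35116 windows of the same length. The ZEB1 window held 1 E-box that began at position -57, a motif found in 17.49% of all windows. None of the 3 motifs was spelled in the VIM window, and AP-1 elements, present in 6.573% of all windows, were in none of the 3 windows shown. Over all 13 windows of the 6 genes, an E-box was in 2, both of ZEB1, a CRE in 1 and an AP-1 element in 1, of CDH2. These matches describe letters only.

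Some of the genes had a probe set that passed a filter on brightness and others had none. A probe set was tested if at least 1 extract mean reached 6.60, the median of all values, which left 30127 probe sets. Of the 29 probe sets, 13 passed, and they belonged to 6 genes: ZEB1, VIM, CDH2, FN1, LOXL2 and MMP1. The other 16 lay between 4.27 and 6.67 on every array, and their extract means spanned 0.11 to 0.48. Among the transcription factors, SNAI2 averaged 5.00 and TWIST1 5.03 over the 15 arrays, and the 5 probe sets of ZEB2 averaged 4.40 to 5.66. SPARC, a collagen-binding matrix protein made abundantly by stromal cells, averaged 5.02 and 5.18 on its 2 probe sets. These 4 genes had no tested probe set, so for them no difference between extracts was measured at this brightness. Of the FN1 probe sets, 3 passed through the MORAb003 extract alone, where they were brightest, so that their count among the tested ones says nothing in itself. The tested FN1 probe sets averaged 6.34 to 6.76 over the 15 arrays and that of MMP1 averaged 6.17, so these genes were dim as well.

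**Figure D1:**
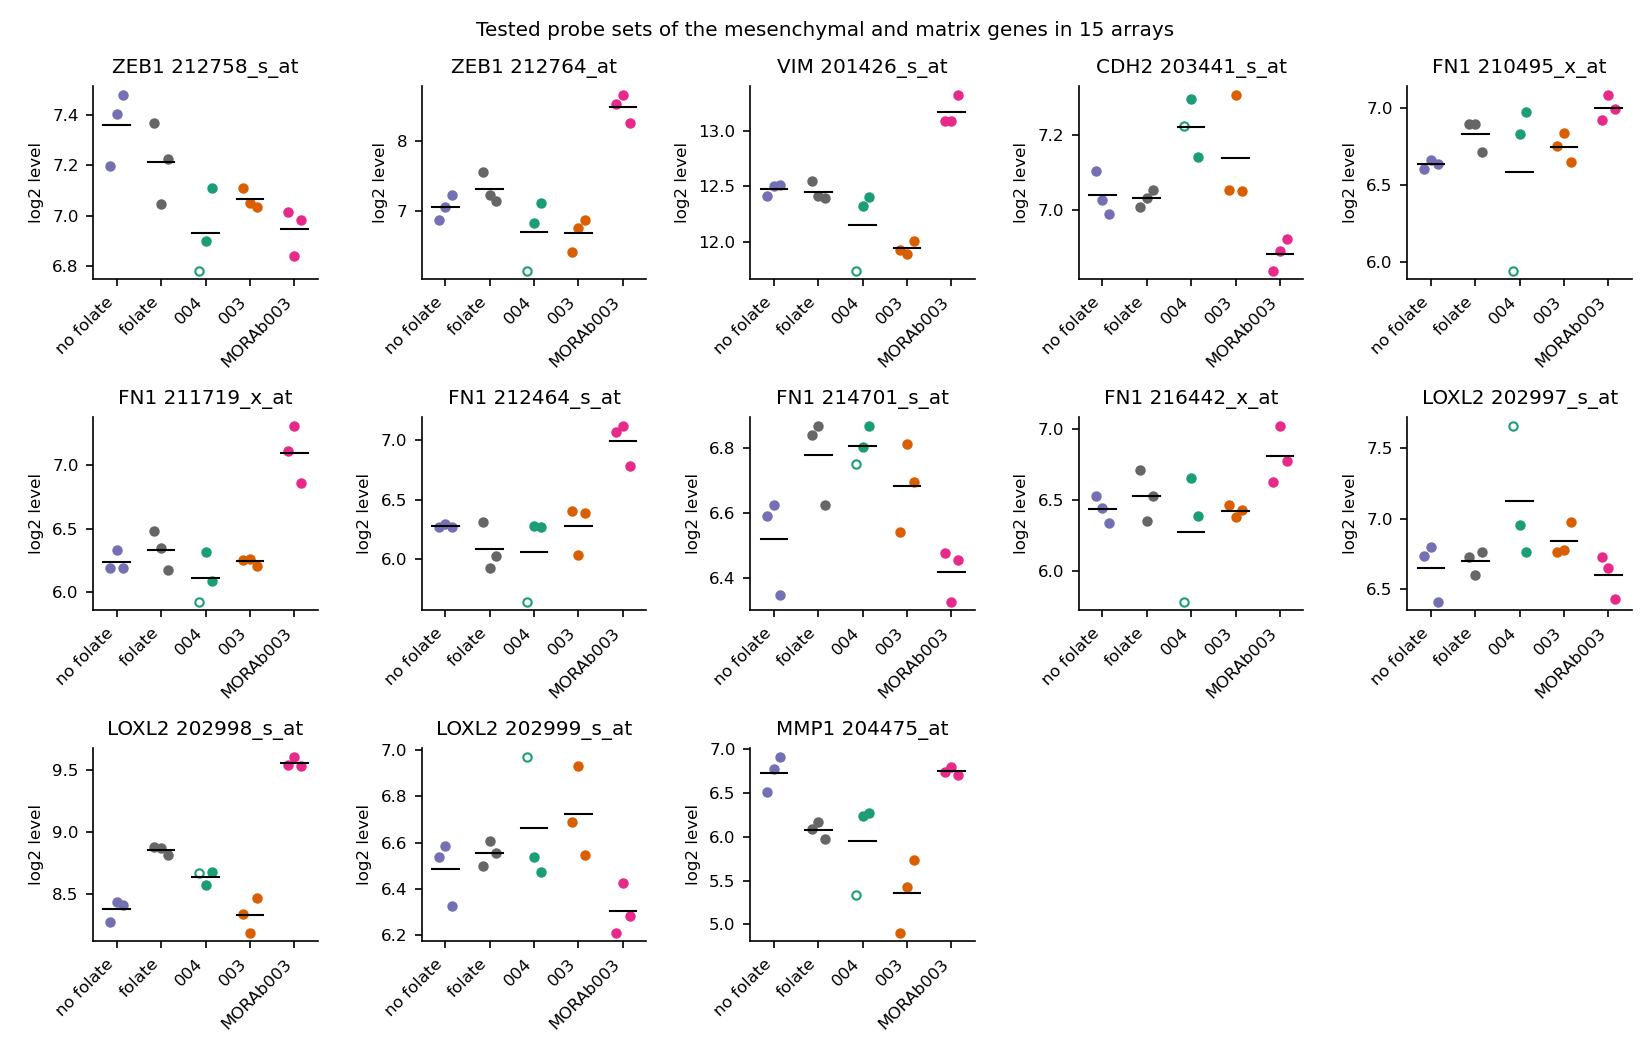
Deposited log2 level (y axis) on each of the 15 arrays, by extract (x axis), for the 13 tested probe sets, with 1 point per array and a bar at the extract mean. The open symbol is array 1 of the 004 extract. The MORAb003 points of ZEB1 212764_at, VIM and LOXL2 202998_s_at lie above every other point of the same probe set, whereas the no-folate and MORAb003 points of MMP1 lie at similar levels.

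The comparison of MORAb003 with folate asks what the antibody changed in cells fed alike. In 4 genes a probe set was higher in the MORAb003 extract: ZEB1 by 1.17, FN1 by 0.90 and 0.76, VIM by 0.71 and LOXL2 by 0.70 on the log2 scale. Of the 13 tested probe sets, 5 were called higher and 0 lower, a call needing an adjusted p under 0.05 in limma and at least a 1.5-fold difference. Over all tested probe sets, 6.06% were called higher and 1.75% lower. Both FN1 probe sets among the 5 passed the brightness filter through the MORAb003 extract alone, so the count is not independent of that filter. The median difference of all tested probe sets was -0.04. Arrays were run on 2 dates, with replicates 1 and 2 on the first and replicate 3 on the second, and the 5 differences had the same sign on both. They were 1.20 and 1.10 for ZEB1 212764_at, 0.98 and 0.75 for FN1 212464_s_at, 0.80 and 0.69 for FN1 211719_x_at, 0.60 and 0.93 for VIM and 0.70 and 0.72 for LOXL2 202998_s_at. A fit to the arrays of the first date alone called none of the 5, with limma adjusted p-values from 0.058 to 0.17.

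ZEB1, the zinc-finger repressor of E-cadherin, gave the widest difference through its probe set 212764_at. It read 8.53, 8.66 and 8.25 on the MORAb003 arrays. The folate arrays read 7.56, 7.22 and 7.14, the no-folate arrays 6.88, 7.05 and 7.23, the 003 arrays 6.41, 6.76 and 6.87 and the 004 arrays 6.15, 6.83 and 7.11. All 3 MORAb003 arrays lay above the other 12. Among these, the folate arrays overlapped with the no-folate arrays and lay above the 003 and 004 arrays, which overlapped with each other. The difference from folate was 1.17 (SE 0.21, limma adjusted p = 0.0037), and it was 1.78 from the 004 extract (adjusted p = 0.00013), or 1.503 without array 1 of 004. In the order of extract means, the step from folate up to MORAb003 passed the test, and no other pair of neighbours did. E-cadherin itself read -0.46 in MORAb003 against folate (adjusted p = 0.21) and was not called.

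The second tested ZEB1 probe set, 212758_s_at, did not share this order. Its MORAb003 arrays read 7.02, 6.84 and 6.98, and its folate arrays 7.37, 7.05 and 7.23. No-folate arrays were brightest in the mean, at 7.20, 7.40 and 7.48, and the 003 and 004 arrays lay between 6.78 and 7.11. The difference of MORAb003 from folate was -0.27 (SE 0.11, adjusted p = 0.15), and no neighbours in its order differed. The gap between the responses of both probe sets was itself 1.44 (limma adjusted p = 0.00018 over 10591 probe set pairs of all genes), so that the call for ZEB1 rests on 1 of its 2 tested probe sets. The other 2 ZEB1 probe sets, 210875_s_at and 239952_at, were too dim to test, averaging 4.52 and 5.60. Their highest extract means were those of MORAb003, at 4.77 and 5.75, differences that were not tested. On 239952_at, no-folate array 3 and 004 array 1 both read 5.84, above every MORAb003 array. Untested probe sets of the other tested genes did not share this direction. MORAb003 had the lowest extract mean on FN1 1558199_at (5.38) and 214702_at (4.49), LOXL2 228808_s_at (6.27) and CDH2 203440_at (4.77). VIM 1555938_x_at read 5.05 in MORAb003 and 5.06 in folate.

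VIM encodes vimentin, the intermediate filament of mesenchymal cells, and 201426_s_at was its single tested probe set. It read 13.08, 13.09 and 13.32 on the MORAb003 arrays. Folate arrays read 12.55, 12.41 and 12.39 and no-folate arrays 12.41, 12.50 and 12.51, while the 004 arrays read 11.74, 12.32 and 12.40. The 003 arrays, at 11.93, 11.89 and 12.01, were lowest apart from array 1 of 004. MORAb003 was above all other arrays and 0.71 above folate (SE 0.14, limma adjusted p = 0.0064). No folate and folate differed by 0.02. Array 1 of 004 mattered for the size of the difference from that extract, which was 1.01 with it and 0.80 without it.

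CDH2, the N-cadherin of mesenchymal junctions, was called in no comparison. Its tested probe set 203441_s_at read 6.84, 6.89 and 6.92 on the MORAb003 arrays and 6.99 to 7.31 on the other 12. MORAb003 was therefore below every other array, but the difference from folate was -0.15 (SE 0.09, limma adjusted p = 0.31). Against 004 and 003 the differences of -0.34 and -0.25 had adjusted p-values of 0.014 and 0.039 and were under 1.5-fold.

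FN1 encodes fibronectin, the matrix glycoprotein that integrins bind, and was read by 5 tested probe sets that did not move as one. On 212464_s_at the MORAb003 arrays read 7.07, 7.12 and 6.78, against 6.31, 5.92 and 6.03 with folate and 5.64 to 6.41 over all 12 other arrays. On 211719_x_at they read 7.11, 7.31 and 6.86, against 6.48, 6.35 and 6.17 with folate and 5.92 to 6.48 elsewhere. On both, every MORAb003 array lay above the other 12. The differences from folate were 0.90 (SE 0.17, limma adjusted p = 0.0044) and 0.76 (SE 0.13, adjusted p = 0.0024). Both passed the brightness filter through that extract alone.

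The remaining 3 FN1 probe sets gave smaller or opposite differences. The probe set with the highest mean, 210495_x_at, differed by 0.16 between MORAb003 and folate, and 216442_x_at by 0.28, neither of them called. On 214701_s_at MORAb003 had the lowest mean, with arrays at 6.48, 6.33 and 6.45 against 6.84, 6.87 and 6.62 with folate, a difference of -0.36 (adjusted p = 0.046) that was under 1.5-fold. Measured against 210495_x_at, the responses of 211719_x_at and 212464_s_at were larger by 0.60 and 0.74 (limma adjusted p = 0.024 and 0.0049). Names ending in _x_at mark probe sets whose probes may also match other transcripts.

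**Figure D2:**
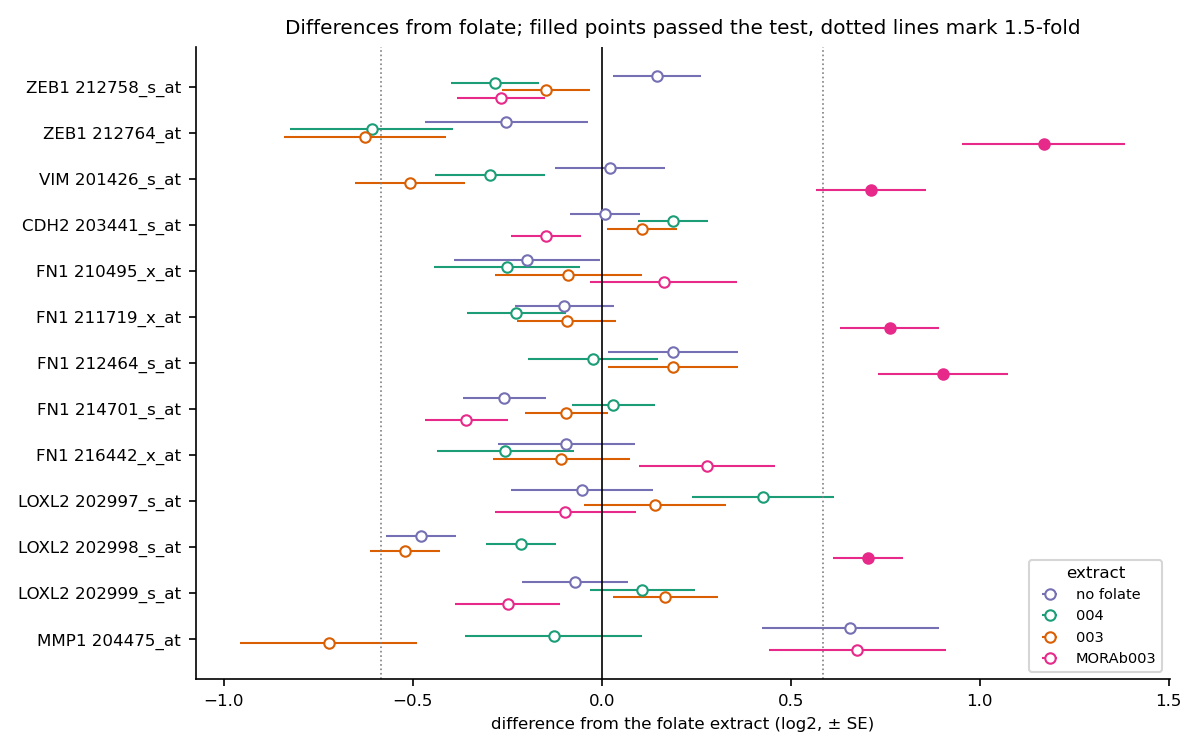
Difference from the folate extract on the log2 scale (x axis, with SE from the limma fit) for the 13 tested probe sets (y axis), 1 colour per extract. Filled symbols passed the adjusted p and the 1.5-fold minimum, which 5 probe sets did for MORAb003 and 0 did for no folate, 003 and 004.

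LOXL2, a lysyl oxidase that crosslinks collagen, was read by 4 probe sets, of which 3 were tested. On 202998_s_at the MORAb003 arrays read 9.53, 9.60 and 9.53. Folate arrays read 8.87, 8.87 and 8.81, 004 arrays 8.67, 8.57 and 8.67, no-folate arrays 8.27, 8.44 and 8.41 and 003 arrays 8.34, 8.19 and 8.46. MORAb003 did not overlap with any extract, and the folate arrays did not overlap with the 3 below them. The rise over folate was 0.70 (SE 0.09, limma adjusted p = 0.00046). Folate was above no folate by 0.48 (adjusted p = 0.0086) and above 003 by 0.52 (adjusted p = 0.014), both under 1.5-fold and so not called. After quantile normalization the MORAb003 difference from folate was 0.56 and fell short of the fold minimum.

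The other LOXL2 probe sets did not follow. On 202997_s_at the MORAb003 arrays read 6.73, 6.65 and 6.43 and the folate arrays 6.73, 6.60 and 6.77, while array 1 of 004 read 7.66. On 202999_s_at the MORAb003 arrays read 6.21, 6.43 and 6.28 and the folate arrays 6.50, 6.61 and 6.55. The untested 228808_s_at stayed between 6.20 and 6.67 on all arrays. On 202997_s_at and 202999_s_at MORAb003 differed from folate by -0.10 and -0.25, with neither called.

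For LOXL2 the disagreement itself passed the test, but it was already known from these arrays when the genes were chosen. Its p-values therefore describe its size and are no independent support for it. The response of 202998_s_at to MORAb003 over folate exceeded that of 202997_s_at by 0.80 (limma adjusted p = 0.0088) and that of 202999_s_at by 0.95 (adjusted p = 0.0012). In 003 against folate the sign turned, with 202998_s_at lower than the others by 0.66 and 0.69 (adjusted p = 0.048 and 0.023). Against 004 the gaps were 1.44 and 1.28, and against 003 they were 1.46 and 1.64. The higher LOXL2 level in the MORAb003 extract was thus a reading of 202998_s_at that its other tested probe sets did not share. Those, 202997_s_at and 202999_s_at, averaged 6.79 and 6.55 over the 15 arrays, near the filter value of 6.60, against 8.75 for 202998_s_at. A scale compressed at its low end would understate differences of such dim probe sets, which was not tested. Which transcripts each probe set reads was not examined here.

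Pairs of probe sets could be compared for FN1, LOXL2 and ZEB1, giving 7 pairs in each of 7 comparisons. Of these 49, 15 disagreed: 5 for MORAb003 against folate, where 14.1% of pairs over all genes did, 4 against 004 (25.4% of all pairs) and 4 against 003 (28.3%). The remaining 2 were the LOXL2 pairs in 003 against folate (5.32% of all pairs). No pair disagreed in no folate against folate (9.17%), 004 against folate (0%) or 003 against 004 (5.86%). Without array 1 of 004, the pairs that disagreed in MORAb003 against 004 numbered 5. These totals are not independent of how the probe sets were taken. The LOXL2 disagreement was known when the genes were chosen, and both LOXL2 pairs disagreed in each MORAb003 comparison. FN1 211719_x_at, 212464_s_at and 216442_x_at passed the brightness filter through the MORAb003 extract alone. The totals are therefore no support for more disagreement in these genes than over all pairs.

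**Figure D3:**
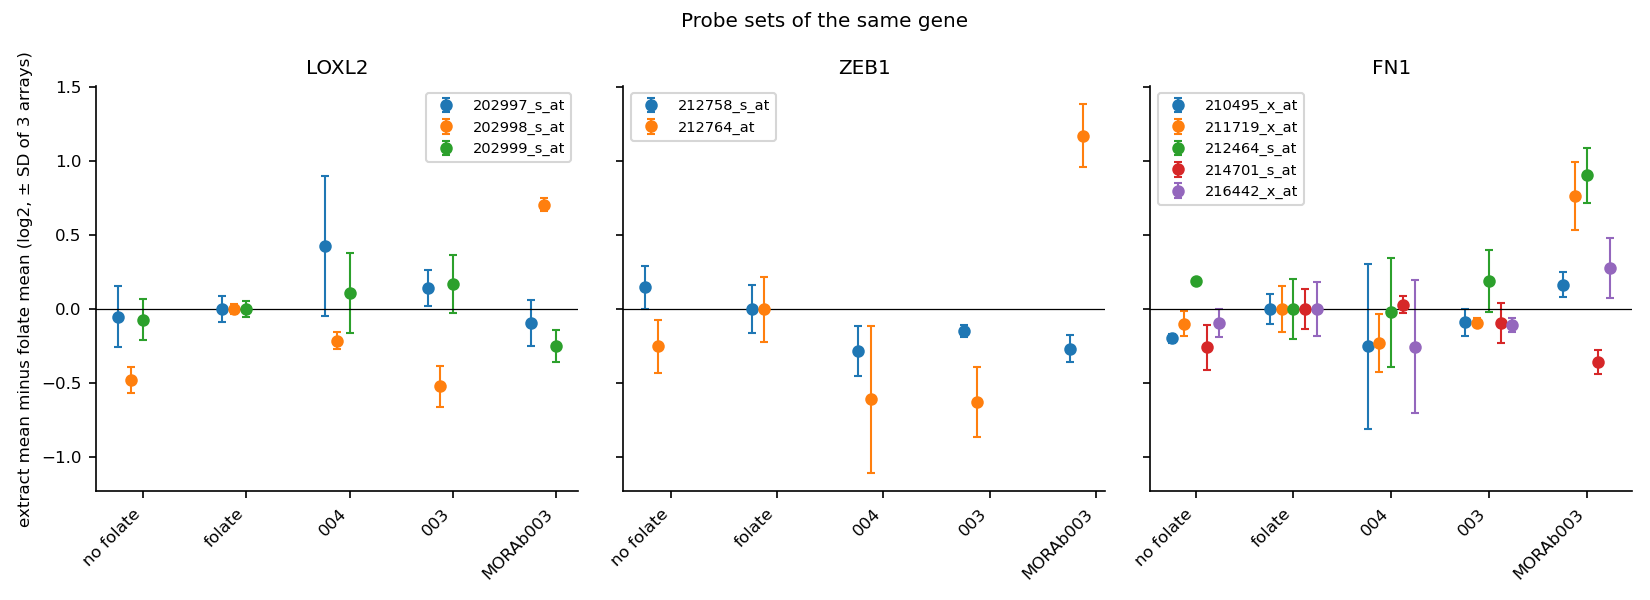
Extract mean minus the folate mean on the log2 scale, with the SD over 3 arrays (y axis), in each extract (x axis) for every tested probe set of LOXL2, ZEB1 and FN1, 1 panel per gene and 1 colour per probe set. In MORAb003, LOXL2 202998_s_at and ZEB1 212764_at stand 0.70 and 1.17 above folate, while the other tested probe sets of both genes lie below it.

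MMP1, the interstitial collagenase, had its own order. Its probe set 204475_at read 6.51, 6.77 and 6.92 on the no-folate arrays and 6.75, 6.80 and 6.71 on the MORAb003 arrays. Folate arrays read 6.09, 6.17 and 5.97, the 004 arrays 5.33, 6.24 and 6.28, and the 003 arrays 4.90, 5.42 and 5.73. No-folate and MORAb003 arrays thus overlapped at the top and lay above the other 9. The 003 arrays were lowest, apart from array 1 of 004, which fell among them.

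With all arrays, no neighbouring extracts in the MMP1 order passed the test, although the no-folate and folate arrays did not overlap. The probe set passed the brightness filter through the no-folate and MORAb003 extracts alone, where it was high, so its calls against other extracts are not independent of that filter. MORAb003 exceeded 003 by 1.40 (SE 0.23, limma adjusted p = 0.00043). No folate exceeded 003 by 1.38 (adjusted p = 0.037), the single probe set of the 13 called in that comparison, in which 0.129% of all tested probe sets were called higher and 0.00996% lower. It also exceeded 004, by 0.78 (adjusted p = 0.047), again alone among the 13, where 5.6% were called higher and 0.926% lower. That difference was 0.47 and not called without array 1 of 004, and the shares over all tested probe sets turned to 2.97% higher and 4.82% lower. The differences of MORAb003 and no folate from folate, 0.68 (adjusted p = 0.072) and 0.66 (adjusted p = 0.13), were not called, nor was that of 003, -0.72 (adjusted p = 0.10). The extracts share 1 estimate of the spread, and without array 1 of 004 all 3 of these differences were called, at adjusted p-values of 0.0020, 0.0034 and 0.0018. The step from no folate to folate, which are neighbours in the order, was thus called once that array was left out. With the replicate number as a block, the MORAb003 difference from folate was called as well (limma adjusted p = 0.041). MORAb003 against 004 went the other way, from 0.80 (adjusted p = 0.018) to 0.49 (adjusted p = 0.027), which is under 1.5-fold.

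No folate against folate addresses what folate withdrawal changed. None of the 13 probe sets was called by limma, against 1.68% of all tested probe sets called higher and 2.28% lower. An unadjusted limma p under 0.05 was held by 3 of the 13 and by 5766 of all 30127 tested probe sets. Without array 1 of 004, MMP1 was called higher, where 2.25% of all tested probe sets were called higher and 5.09% lower. Vimentin, N-cadherin and both ZEB1 probe sets lay between -0.25 and 0.15 in this comparison, and LOXL2 202998_s_at gave the value of -0.48 already described. Against MORAb003 the no-folate extract was lower on the 5 probe sets that were called higher in MORAb003 over folate, from -1.42 for ZEB1 212764_at (limma adjusted p = 0.00022) to -0.69 for VIM, and higher on 0, where 6.68% of all tested probe sets were called higher and 15.4% lower. Both FN1 probe sets among the 5 passed the brightness filter through the MORAb003 extract alone, so this count is not independent of that filter.

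The 003 extract against folate likewise gave 0 of 13 called by limma, against 0.488% called higher and 1.75% lower over all tested probe sets. At an unadjusted p under 0.05 there were 4 of the 13 and 6270 of all 30127. The largest differences were -0.72 for MMP1, -0.63 for ZEB1 212764_at (adjusted p = 0.12), -0.52 for LOXL2 202998_s_at and -0.51 for VIM (adjusted p = 0.071). Without array 1 of 004, MMP1 and ZEB1 212764_at were called lower in 003 (adjusted p = 0.0018 and 0.0033), where 6.06% of all tested probe sets were then called lower and 0.839% higher. On 1 of the array dates, that of replicate 3, both were nearer to folate, at -0.24 and -0.27, than on the date of the other replicates, at -0.97 and -0.80. These 4 probe sets thus had negative differences from folate with 003 and positive ones with MORAb003, and both comparisons use the same folate arrays.

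The direct comparison of both antibody extracts does not use the folate arrays. MORAb003 exceeded 003 on 6 of the 13 probe sets and was called lower on 0, where 17.3% of all tested probe sets were called higher and 7.52% lower. The 6 were ZEB1 212764_at at 1.80 (limma adjusted p = 3.9e-05), MMP1 at 1.40, LOXL2 202998_s_at at 1.23 (adjusted p = 2e-06), VIM at 1.22 (adjusted p = 3.8e-05), FN1 211719_x_at at 0.85 and FN1 212464_s_at at 0.71. MORAb003 exceeded the control antibody 004 on the same 6, where 17.6% of all tested probe sets were called higher and 2.46% lower. Without array 1 of 004, 5 of these remained, all but MMP1, and the shares over all tested probe sets were 10.8% higher and 2.40% lower. The comparisons share the MORAb003 arrays. Of the 6, both FN1 probe sets passed the brightness filter through the MORAb003 extract alone, and MMP1 through the MORAb003 and no-folate extracts. Their calls, and so the counts, are not independent of that filter.

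Control antibody against no antibody gave no called probe set of the 13 and none of all 30127 (0%), with 4 and 2680 at an unadjusted p under 0.05. The 2680 became 1129 without array 1 of 004. In 003 against 004, 0 of 13 were called, against 2.96% higher and 0.571% lower over all tested probe sets. In that comparison 2 of the 13 and 6606 of all 30127 had an unadjusted p under 0.05. MMP1 read -0.60 there. With array 1 of 004 left out it read -0.91 and was called lower, and the shares turned to 1.01% of all tested probe sets called higher and 5.35% lower. The fit that uses the 5 extract means, with 003 and MORAb003 taken as 1 treatment and folate and 004 as 1 control, called 0 of 13 and 0% of all probe sets by limma. At an unadjusted p under 0.05 it held 0 of the 13 and 94 of all probe sets. ZEB1 212764_at differed by 0.58 there (SE 0.58) and VIM by 0.25 (SE 0.41), so a difference common to both antibody cultures was not detectable with this spread.

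**Figure D4:**
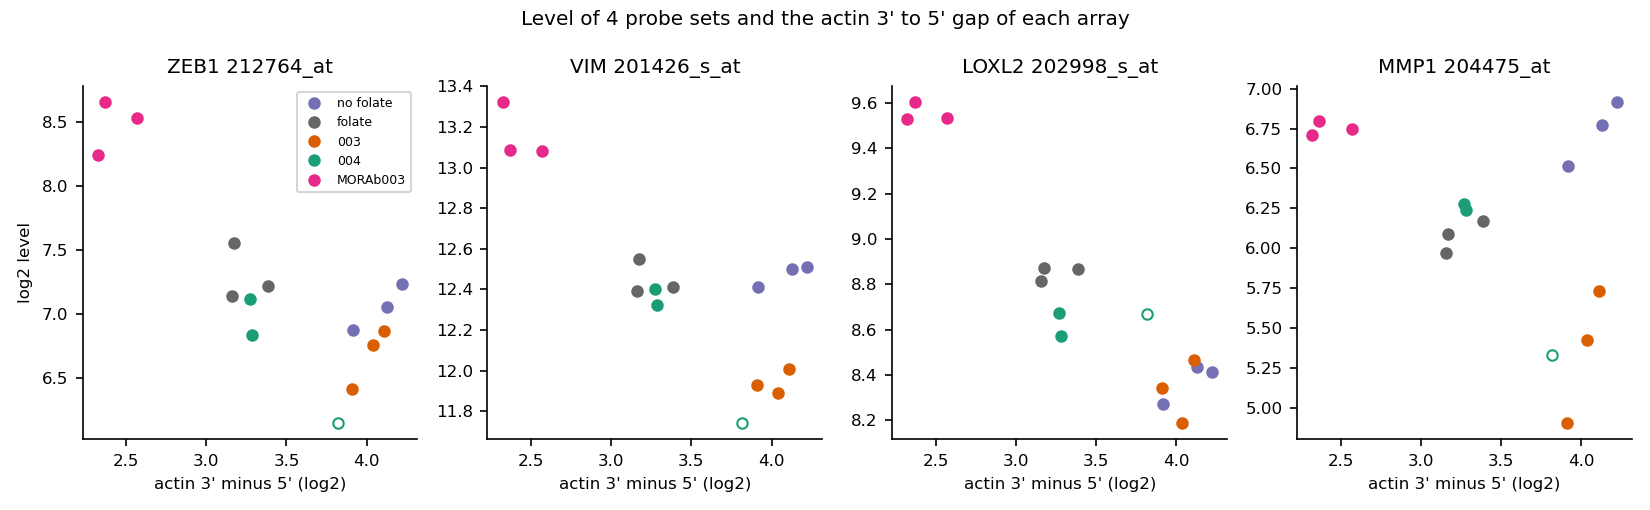
Log2 level of ZEB1 212764_at, VIM, LOXL2 202998_s_at and MMP1 on each array (y axis) against the actin 3′ minus 5′ gap of that array on the log2 scale (x axis), coloured by extract, with array 1 of the 004 extract as an open symbol. The MORAb003 arrays combine the smallest gap with the highest ZEB1, VIM and LOXL2 levels, whereas MMP1 is as high on the no-folate arrays, which have a large gap.

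The control gap is set beside the levels of these genes here, and its part in them was not tested. The MORAb003 arrays, at gaps of 2.32 to 2.57, carried the highest ZEB1 212764_at, VIM and LOXL2 202998_s_at, and the no-folate and 003 arrays, at 3.91 to 4.22, carried the lowest LOXL2 202998_s_at. For MMP1, the no-folate extract had a mean gap of 4.09 and a level of 6.73, while 003 had a gap of 4.02 and a level of 5.35. VIM was 12.47 in no folate and 11.95 in 003 at these like gaps. ZEB1 212764_at was 7.05 in no folate and 6.70 in 004, which had a mean gap of 3.46. Without array 1 of 004, ZEB1 212764_at was 6.97 in 004, near the no-folate level, and the other 004 arrays had gaps of 3.28 and 3.27.

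By similarity of pattern over the 15 arrays, the genes nearest to ZEB1 212764_at were PLCB1 (Pearson r = 0.984), ZNF700 (0.981) and UNC93A (0.980), of 14368 genes searched. All 3 had their highest extract mean in MORAb003. The nearest to MMP1 were MFAP5 (0.924), CDC25C (0.923) and PDE9A (0.922). These are descriptions over arrays that share extracts, and likeness among so many genes carries no test.

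Other genes of the same biology were counted by their brightest probe set, in lists given with their number tested. The shares set beside the list counts are over all tested probe sets and not over genes, so the units differ. Of 10 tested transcription factors of the transition and their epithelial opponents, 0 were called between MORAb003 and folate, with a median difference of -0.10. SNAI1 read -0.08, PRRX1 -0.15 and SOX9 0.51, which was under 1.5-fold, while GRHL1, an epithelial grainyhead factor, read 0.84 (limma adjusted p = 0.067) and was called higher without array 1 of 004. Of the 2 tested lysyl oxidases beside LOXL2, LOXL3 read -0.26 and LOXL4 -0.34, and neither was called.

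The genes called in the matrix lists for MORAb003 against folate were higher, as were most called probe sets of the whole array (6.06% of all tested were higher and 1.75% lower). Of 29 tested collagens and matrix proteins, 4 were higher and 0 lower: FBN1 by 1.89, the laminin chain LAMC1 by 1.04, the collagen VI chain COL6A2 by 1.00 and SPP1, osteopontin, by 0.88. The median of the list was 0.02, beside -0.04 for all tested probe sets. Of 17 tested metalloproteinases and inhibitors, 3 were higher and 0 lower, namely TIMP2 by 0.82, BSG by 0.65 and ADAM10 by 0.62. Among 24 surface and cytoskeletal genes, 2 were higher, the collagen-binding integrin ITGA2 by 1.77 and ACTA2 by 0.67, and 0 lower.

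The TGF-beta pathway, a main inducer of the transition, had 5 of 19 tested genes higher and 0 lower in MORAb003 against folate, beside the same 6.06% and 1.75% of all tested probe sets. They were the receptors TGFBR3 by 0.78, TGFBR2 by 0.73 and BMPR2 by 0.72, the SMAD antagonist SKIL by 1.08 and ID2, an inhibitor of helix-loop-helix factors, by 1.07. The list's median difference was 0.09. Of 15 epithelial markers, 1 was higher, the keratin KRT8 by 0.67, and 0 were called lower. None of 8 tested fibroblast, pericyte and endothelial markers and none of 3 leukocyte markers was called.

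**Figure D5:**
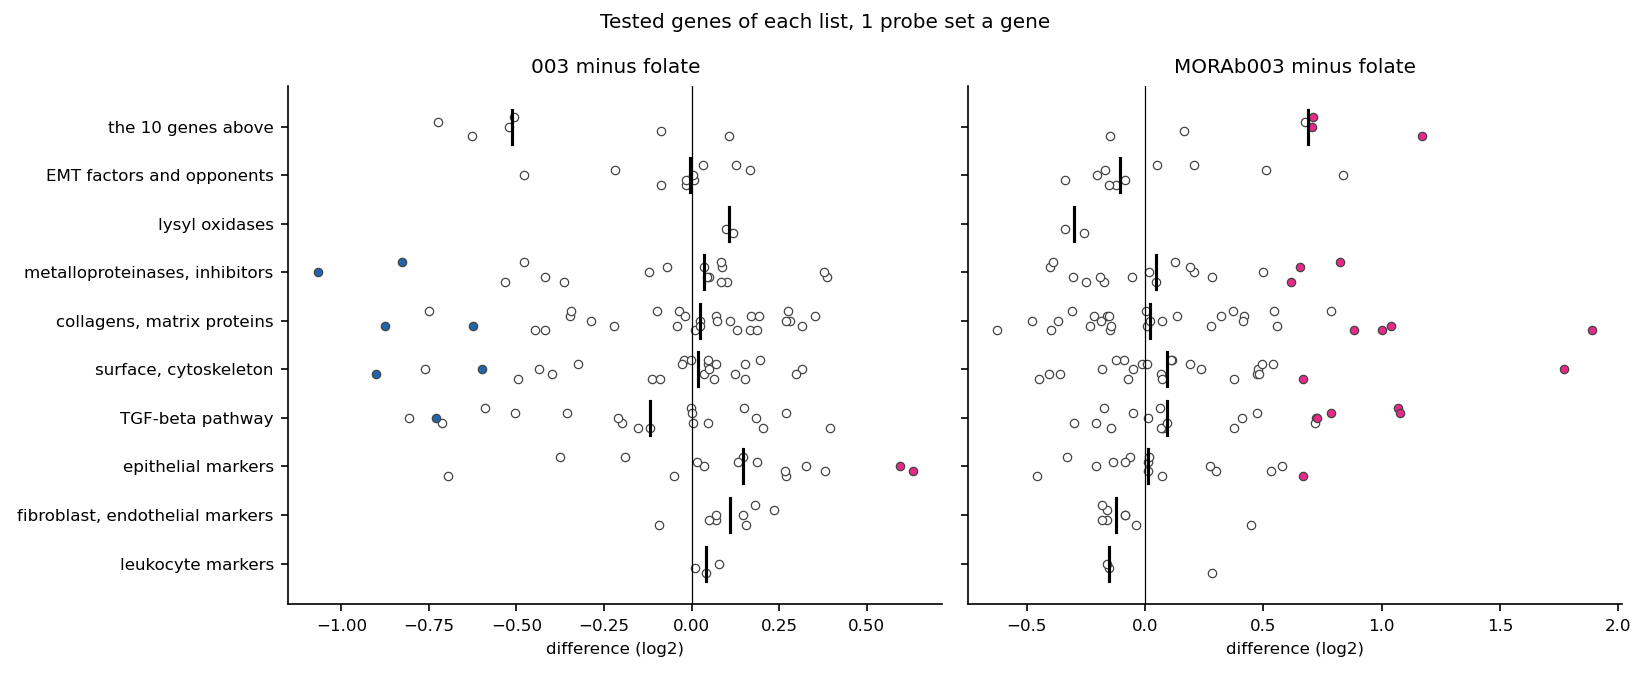
Difference on the log2 scale (x axis) for each tested gene (brightest probe set) of the lists, 1 row per list with a bar at the median, for 003 (left) and MORAb003 (right) against folate. Filled pink symbols are genes called higher and filled blue symbols genes called lower. In the matrix, protease, surface and TGF-beta lists the called genes lie on the lower side for 003 and on the higher side for MORAb003, while list medians lie near 0.

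In the 003 extract most called probe sets of the whole array were lower than in folate, 526 against 147 higher, while 1826 were higher and 528 lower in MORAb003. The called genes of the matrix, protease, surface and TGF-beta lists had these same directions, and the difference between both extracts was not tested for the lists. For 003 against folate, the called differences were -0.87 for COL4A1, -0.62 for LAMC1, -1.07 for the protease ADAM9, -0.83 for MMP10, -0.90 and -0.60 for the integrins ITGAV and ITGB1 and -0.73 for TGFBR2, while 0 genes of these lists were called higher. The epithelial genes MUC1 and CLDN4 were higher by 0.63 and 0.59. No folate against folate also called several of these, with COL4A1 at -0.91, ADAM9 at -1.21, ITGAV at -0.81, MUC1 at 1.08 and CLDN4 at 0.61, and also HSPG2, perlecan, higher by 0.76. Both comparisons use the same folate arrays. Without array 1 of 004, TGFBR1 (-0.71), BMPR2 (-0.81) and SMAD2 (-0.59) joined TGFBR2 as lower in 003, and 4 pathway genes were called in no folate, TGFBR1 (-0.73) and BMPR2 (-0.64) lower and ID2 (0.74) and SKI (0.60) higher. E-cadherin was then called lower in both, at -0.70 in 003 and -0.81 in no folate. In 004 against folate 0 genes of any list were called.

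Between both antibody extracts, where 17.3% of all tested probe sets were higher in MORAb003 and 7.52% lower, MORAb003 exceeded 003 for 8 of 29 matrix genes, led by FBN1 at 2.31, LAMC1 at 1.66, LAMB1 at 1.53 and COL4A1 at 1.43, and was lower for 3, COL7A1 at -0.76, LAMB3 at -0.63 and COL1A1 at -0.59. Of 19 TGF-beta pathway genes 8 were higher, with SKIL at 1.58, BMPR2 at 1.53, TGFBR2 at 1.45 and TGFBR1 at 1.43, and 0 lower. Among the factors, GRHL1 at 1.32 and SOX9 at 0.73 were higher. Of the epithelial markers, KRT8 was higher at 0.72 and MUC1 lower at -0.62. Of 17 metalloproteinases and inhibitors 6 were higher, led by ADAM9 at 1.57, TIMP2 at 1.30, ADAM10 at 1.15 and MMP10 at 0.95, and 0 lower. Of 24 surface and cytoskeletal genes 8 were higher, led by the integrins ITGA2 at 2.21, ITGAV at 1.38 and ITGB1 at 1.07 and by CALD1 at 1.00, and TAGLN was lower at -0.66.

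For MORAb003 against 004, where 17.6% of all tested probe sets were higher, or 10.8% without array 1 of 004, GRHL1 (1.24), SOX9 (0.78), KRT8 (0.85), the claudin CLDN3 (0.78), TIMP2 (1.26), ADAM9 (1.02), ADAM10 (0.97) and BSG (0.92) were called higher, with and without that array. Of the TGF-beta genes 7 were higher, also in both fits, among them SKIL at 1.56, ID2 at 1.54 and TGFBR3 at 1.22. Of 29 matrix genes, 10 were called higher and 0 lower, which became 5 higher (FBN1, LAMC1, COL6A2, LAMB1 and SPP1) and 2 lower (LAMB3 at -0.68 and BGN at -0.60) without array 1 of 004, and surface genes went from 9 higher and 1 lower, TAGLN at -0.61, to 3 higher (ITGA2, ITGAV and MSN) and 0 lower. In 003 against 004, CLDN3 (0.86), MUC1 (0.77), MMP15 (0.73) and COL18A1 (0.60) were called higher and MMP10 (-0.87) lower. Of these 5, CLDN3 and MMP10 were called without array 1 of 004 too. One endothelial marker, CDH5, was called higher in MORAb003 against 004 at 0.80 and not called without that array.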

How the data were processed

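Expression was measured in 15 arrays, 3 aliquots of 1 RNA extract for each of 5 conditions, which were grouped by the sample titles. Per the labels' protocols, total RNA was taken with Trizol and turned into biotinylated cRNA. Each probe set has a deposited log2 level, used as the authors gave it. How it was summarised and normalised is not given in the sources used here. A scale compressed at its low end understates differences of dim probe sets. Control probe sets (62 of 54675) were left out.

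Probe sets with at least 1 extract mean at or above the median of all values were tested (30127) with limma 3.58.1 in R 4.3.3, using 5 extract means over 15 arrays and 10 residual degrees of freedom. A call needed a Benjamini-Hochberg adjusted p under 0.05 over all tested probe sets and a 1.5-fold difference. Agreement was tested in the same way on the per-array difference between a gene's brightest and another probe set. The fits were also tested on simulated data. All probe sets of the 10 genes are reported; of the other lists, up to 4 called genes with the largest difference per comparison could be named, as could all those behind a printed count of 5 or fewer and any gene as an uncalled example. Genes named as called without array 1 of the 004 extract were chosen after their values were seen. Patterns most like ZEB1 and MMP1, the genes with the widest range of extract means, were ranked by Pearson correlation. The genes and lists were chosen with earlier results of these data known. Alternatives were quantile normalization, other filters, 1 probe set per gene, no fold minimum, replicate number or array date as a block, single dates, the 6 compared arrays alone and leaving out each array. The number of arrays limits precision between hybridisations, and 1 culture per condition leaves the spread between cultures unmeasured.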

Additional observations from a re-analysis of the deposited data

How the results depend on the processing

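Of 17 called differences in the 7 comparisons among folate, 003, 004, MORAb003 and no folate against folate, each kept its sign wherever it was given: all 17 in every alternative except the filter on the mean of 15 arrays, which gave 9, and 1 probe set per gene, which gave 11. Their sizes were less steady. On the second array date alone, ZEB1 212764_at in MORAb003 against 004 was 1.13 instead of 1.78. VIM in MORAb003 against folate was 0.93 there instead of 0.71. For MORAb003 against folate the 5 called probe sets became 3 when probe sets were filtered on the mean of 15 arrays or 1 probe set per gene was tested, and 0 on the first array date alone. Filtering on that mean also left 3 of 6 against 004 and 3 of 6 against 003. Without a fold minimum 1 was called in no folate against folate, 1 in 003 against folate and 10 in MORAb003 against 004. With the 6 compared arrays alone these numbers were 1, 2 and 3. Counts under these alternatives and with arrays left out have no share over all tested probe sets beside them here. They describe only how the calls depend on the settings. Leaving out each array gave 0 to 1 for no folate against folate, 0 to 2 for 003 against folate, 5 to 6 for MORAb003 against folate, 0 to 1 for 003 against 004, 5 to 9 for MORAb003 against 004 and 12 to 19 disagreeing pairs; the values above 0 in the comparisons with none came without array 1 of 004 or, for 003 against folate, also without 003 array 3. After quantile normalization 4 of the 5 remained against folate, and 12 pairs disagreed. Of all called probe sets, the share higher was then 66.0% against 77.6% as deposited for MORAb003 against folate, 70.8% against 87.8% for MORAb003 against 004 and 64.5% against 83.9% for 003 against 004, where leaving out array 1 of 004 instead turned the split from 893 higher and 172 lower to 298 and 1582. With the replicate number as a block, 6 probe sets were called for MORAb003 against folate, with MMP1 joining at 0.68 (limma adjusted p = 0.041), and 15 pairs disagreed. The number follows the array date (1 and 2 on the first, 3 on the second), and with the date as a block 5 were called for MORAb003 against folate. Deviations of same-numbered arrays had a median r of -0.07 over 30 pairs, 8 of them over 0.1, so the arrays were not treated as paired. Dim signal limits ZEB2, SNAI2, TWIST1 and SPARC, for which differences could not be tested.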
